A study of Mus musculus with 8 samples.

Results

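The response of control vector cells to 8 h of TGFbeta was described from 4 arrays of the 8 in the series, 2 of untreated cells (0 h) and 2 of TGFbeta-treated cells. None of the 8 arrays was labelled as untreated cells at 8 h. Each change after TGFbeta below is therefore a difference between treated cells at 8 h and untreated cells at 0 h. The part of time in culture in these changes was not tested. The control vector cells were labelled NMuMG, an established line from normal mouse mammary gland epithelium, and they stably carried a control vector. The other 4 arrays came from NMuMG cells that carried a vector with major satellite sequences, the repeat of mouse pericentromeric heterochromatin, likewise untreated or treated for 8 h. The dose of TGFbeta and the number of clones behind each line are not given in the sources used here. All genes whose probeset had exactly 1 gene symbol were described, 19937 genes from 34760 probesets, with the probeset of the highest mean used for the 954 genes that had several. The array titles carry a code that 1 array of each group shares, and arrays with the same code were treated as a pair, replicate 1 or replicate 2. Nothing in the labels says that replicates were separate cultures, so p-values measure the spread between these arrays, and their number limits the precision.

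TGFbeta binds a pair of serine/threonine kinase receptors that phosphorylate Smad2 and Smad3. These join Smad4, enter the nucleus and act on genes together with partner factors such as AP-1. The pathway is known for stopping epithelial cells in the G1 phase of the cell cycle and for inducing matrix genes, and in NMuMG cells for the epithelial-mesenchymal transition (EMT). Most accounts of that transition follow adhesion genes and the Snail, Zeb and Twist repressors, and the account below goes on to other functions.

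The deposited values are log2 expression values per probeset, so a difference of 1 is a 2-fold difference. Array medians lay between 7.72 and 7.76 in replicate 1 and between 7.88 and 7.92 in replicate 2. A background signal was taken from 1207 odorant, vomeronasal and trace amine receptor genes, which mammary epithelium is not known to express. The 95th percentile of their untreated mean was 7.15 and their median 5.34. Of the 19937 genes, 13445 lay above 7.15 in untreated cells. A level belongs to its probeset, and the bands of level used below sort probesets by signal, not genes by abundance.

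Epithelial markers were read first, as a check of the label. Cdh1 (E-cadherin, untreated mean 13.00), the keratin genes Krt8 (14.29), Krt18 (13.71) and Krt19 (13.48), and Ocln, a tight junction gene (10.19), lay well above background. Epcam, the epithelial cell adhesion molecule, had a mean of 6.66, and the epithelial regulators Esrp1 (6.10) and Grhl2 (6.12) also lay within the background range. Counts of markers above background are to be read against 13445 of all 19937 genes. Of 19 epithelial identity markers, 11 lay above background. Of 12 mammary luminal and milk markers, 5 did, with Muc1 highest at 11.53, and the casein gene Csn1s1 was at 4.69. Of 14 fibroblast markers, 8 lay above background, with levels up to 12.03, among them Twist2 at 10.46 and Col1a1 at 8.46. The matrix genes Dcn, Lum, Fap and Postn, which mark resident fibroblasts, were between 4.64 and 5.85. Of 15 endothelial and immune markers, 5 lay above background, with levels up to 8.80, and the leukocyte gene Ptprc was at 6.44. The mean over the fibroblast markers was 7.35 and 7.56 in the untreated arrays and 7.45 and 7.57 in the treated ones, and over the endothelial and immune markers it was 6.62 and 6.87 against 6.72 and 6.92. Their part in the results below was not tested.

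Genes best known from liver and gut were read well above background as well, in a list put together after the values were seen. Hnf4a, a nuclear receptor of liver, gut and kidney epithelium, had an untreated mean of 12.89. Alb (albumin) was at 12.44, Cdh17, the intestinal LI-cadherin, at 12.49, and Lgals4, an intestinal galectin, at 12.21. Of 32 measured genes of that list, 23 lay above background in untreated control vector cells, where 13445 of all 19937 genes did. In each of the 8 arrays 20 of the 32 did. The count alone therefore does not set the list apart. Other members of the list lay within background, among them Ahsg (6.38), Fgg (5.62), Hnf4g (6.18) and Cyp3a11 (4.19). The levels of Hnf4a, Alb, Cdh17 and Lgals4, with Epcam, Esrp1 and Grhl2 within background, are unlike what is known of mammary epithelium. Each level belongs to its probeset, and the identity of the cells was not tested. The name NMuMG is therefore used only as the labels give it.

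In the comparison of 8 h with 0 h, 1380 genes were higher (6.92% of 19937) and 1521 lower (7.63%) at an adjusted p under 0.05. These calls come from limma with a block for each replicate pair, in which the spread is estimated over all 8 arrays. Without the block, 141 genes were higher (0.707%) and 73 lower (0.366%), and all 214 were among the 2901. Rises made up 47.6% of the calls with the block and 65.9% without it. The choice between the models therefore sets how many genes pass, and genes that pass in both are named with the functions they belong to. A rise or fall below is a call of the blocked model. The median change was 0.56 among the rises, -0.54 among the falls and 0.01 over all genes, with a median standard error (SE) of 0.10. Changes of at least 2-fold were found for 232 rises and 192 falls, and of at least 4-fold for 22 rises and 18 falls. Among the falls, 1172 of 1521 were larger in the replicate 2 pair (medians -0.46 and -0.63 in the replicate 1 and 2 pairs), and among the rises 803 of 1380 (0.54 and 0.58). Leaving out 1 control vector array left 652 to 932 rises and 528 to 1202 falls, with the fewest rises without treated replicate 2 (652, and 550 falls) and the fewest falls without untreated replicate 2 (528, and 712 rises). Without treated replicate 1, 918 rose and 984 fell. In a bulk sample, fewer cells that express a gene and less RNA per cell cannot be told apart.

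Among the 12 largest rises were genes of secreted and surface proteins. Prg4 encodes lubricin, a mucin-like proteoglycan that lubricates joints. It was 7.67 and 6.17 in untreated replicates 1 and 2 and 12.20 and 11.67 after TGFbeta. The change was 5.02 ± 0.25 (SE, 2 arrays a group, adjusted p = 1.04e-05 in the blocked limma model). Untreated levels of Prg4 lay around background and treated levels far above it, with no overlap. This SE and those below use a spread drawn from all 8 arrays and shared across genes. They do not measure the spread between the 2 pairs alone, whose changes were 4.54 and 5.49 for Prg4. Has2, a hyaluronan synthase, went from 6.58 and 6.15 to 9.44 and 9.46 (3.08 ± 0.20), and Lect2, a secreted chemotactic factor best known from liver, from 6.93 and 7.20 to 9.51 and 9.64 (2.51 ± 0.14). Both treated arrays of each gene lay above background, and the untreated arrays lay within it or, for Lect2 in replicate 2, just above it. A rise from within the background range is set against a signal that is not above background, so its size is not a measured fold of the transcript.

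Of the other genes among these rises, all but Aldh1l1 started above background. Mab21l4 was 10.49 and 10.26 before and 13.25 and 12.99 after treatment, a change of 2.75 ± 0.08. Thbs1, the matrix glycoprotein thrombospondin 1 that can activate latent TGFbeta, rose from 10.89 and 9.94 to 13.03 and 13.24, and Sdc3, a heparan sulfate proteoglycan of the cell surface, from 9.37 and 8.72 to 11.75 and 11.39. In these 3 genes the treated arrays were close to each other and the untreated arrays did not reach them. Ctsw, a cysteine cathepsin known from cytotoxic lymphocytes, rose by 3.65 ± 0.20 from 8.02 and 7.53, and Adgra1, an adhesion G protein-coupled receptor, by 3.29 ± 0.14 from 8.47 and 8.31. Gadd45a, a stress-response gene that restrains the cell cycle, rose by 2.41 ± 0.12. Aldh1l1, a folate enzyme, rose by 2.39 ± 0.11 from 7.29 and 6.90, with a mean within the background range. Lmcd1, a LIM domain co-regulator of GATA factors, rose by 2.47 ± 0.21 in the blocked model. Olr1, the receptor for oxidised low-density lipoprotein, rose by 2.33 ± 0.25 in that model, from 7.22 and 7.84, little above background. Without the block the adjusted p of Lmcd1 and Olr1 was 0.185 and 0.197. The other 10 of the 12 passed in both models.

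**Figure D1:**
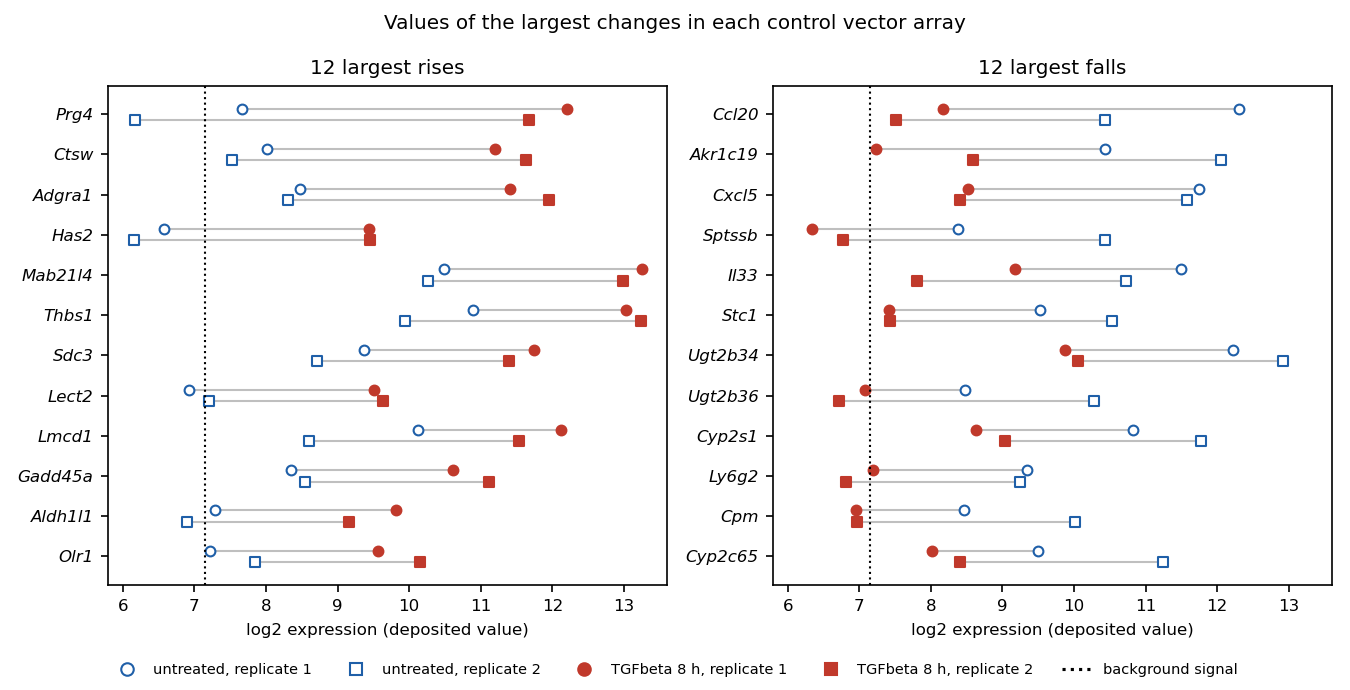
Deposited log2 values of the 12 largest rises and the 12 largest falls in each of the 4 control vector arrays, with a line joining the arrays of a pair and a dotted line at the background signal of 7.15. Prg4 moved from 7.67 and 6.17 to 12.20 and 11.67, while Akr1c19 moved by a like amount in both pairs from 10.43 and 12.05.

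In all, 62 genes started in the background range and lay above it in both treated arrays. After Prg4, Has2, Lect2 and Aldh1l1, the next largest were Ctla2a, a protease inhibitor of the cathepsin propeptide type, which rose from 6.26 and 5.78 to 8.33 and 8.25, and Il11, a cytokine of the interleukin 6 family, from 7.12 and 6.63 to 8.83 and 8.76. Both passed in both models (adjusted p = 0.0104 and 0.014 without the block). The count depends on where background ends, as it was 29 with the 90th percentile of the receptor genes and 108 with the 99th, and 10 of the 62 passed without the block.

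Promoter sequences are shown for rises of at least 2-fold, because AP-1 is a known partner of Smads and its binding letters can be looked for directly. The RefSeq promoter table (GRCm38.p6) holds 300 bases a promoter and gave promoters for 172 of the 232 genes. TGANTCA, the core of the AP-1 site, was searched on both strands. It stood in 14.8% of the 230 promoters of these genes, in 7.88% of the promoters of all rises, in 5.49% of those of genes above background and in 7.81% of all promoters in the table. Promoters of falls of at least 2-fold held it in 12.6%. Windows to show were picked with the promoters of a single chromosome left out. Among the rest, the 3 largest rises with these letters in the 120 bases before the start were Olr1, Il11 and Btbd11. Btbd11, an ankyrin-repeat and BTB domain gene, was named after its values were seen. The windows lie at chr6:129507166-129507285 (minus strand), chr7:4778142-4778261 (minus strand) and chr10:85598291-85598410 (plus strand), and capitals mark TGANTCA.
Olr1: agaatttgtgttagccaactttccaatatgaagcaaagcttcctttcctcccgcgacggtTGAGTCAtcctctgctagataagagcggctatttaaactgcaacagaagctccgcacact
Il11: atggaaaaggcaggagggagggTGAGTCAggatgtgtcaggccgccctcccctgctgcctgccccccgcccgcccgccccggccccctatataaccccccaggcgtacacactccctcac
Btbd11: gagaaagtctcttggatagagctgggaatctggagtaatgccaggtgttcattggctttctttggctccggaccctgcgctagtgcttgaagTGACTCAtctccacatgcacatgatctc

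Btbd11 was 8.20 and 7.83 untreated and 10.33 and 9.54 treated (1.92 ± 0.11, adjusted p = 1.9e-05). CAGACA, letters of the Smad binding element, stood in 27.8% of the 230 promoters, against 14.1% for falls of at least 2-fold, 19.8% for all rises, 16.7% for genes above background and 21% for all promoters. CACCTG, letters that Snail and Zeb repressors bind, stood in 20.4% and 18.9% of promoters of rises and falls of at least 2-fold, and in 20.2% of all. These shares describe letters in a window, not bound sites.

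The 12 largest falls held chemokine genes and genes of detoxification. Ccl20, a chemokine for dendritic cells and lymphocytes, went from 12.31 and 10.43 to 8.17 and 7.52, a change of -3.53 ± 0.33 (adjusted p = 0.000174, and 0.11 without the block). Cxcl5, a neutrophil-attracting chemokine, fell from 11.74 and 11.58 to 8.52 and 8.41 (-3.19 ± 0.16), and Il33, a nuclear cytokine of epithelia, from 11.49 and 10.72 to 9.18 and 7.80 (-2.61 ± 0.13). In each of these genes the treated arrays lay below both untreated arrays. The untreated replicates of Ccl20 differed by more than those of Cxcl5, and Cxcl5 was the one of these 3 that passed in both models.

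Akr1c19, an aldo-keto reductase, was 10.43 and 12.05 untreated and 7.24 and 8.59 treated. Its replicates differed widely while the change within each pair was alike (-3.33 ± 0.13), so it passed with the block and not without it (adjusted p = 0.14). Ugt2b34, a UDP-glucuronosyltransferase, fell from 12.22 and 12.92 to 9.87 and 10.06 (-2.60 ± 0.17), and Cyp2s1, a cytochrome P450 of epithelia, from 10.82 and 11.77 to 8.63 and 9.03 (-2.47 ± 0.22). Both passed in both models. Ugt2b36 (-2.48 ± 0.47) and the cytochrome P450 gene Cyp2c65 (-2.16 ± 0.30) fell with adjusted p of 0.212 and 0.182 without the block. Akr1c, Ugt2b and Cyp2c genes belong to families of near-identical copies, as do Ly6g2, Mrgprb3 and C1s1 below, so their probesets may read more than 1 member. Stc1, the secreted glycoprotein stanniocalcin 1, fell by 2.61 on the log2 scale (SE 0.25) and Ly6g2, a lymphocyte antigen 6 family gene, by 2.30 (SE 0.13), both also without the block.

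Genes also lost signal. In all, 54 genes started above background and ended within it in both treated arrays, 32 with the 90th percentile as background, 92 with the 99th, and 4 of the 54 passed without the block. Sptssb, a subunit of the enzyme that starts sphingolipid synthesis, fell from 8.38 and 10.44 to 6.34 and 6.77. Cpm, a membrane carboxypeptidase, fell from 8.47 and 10.01 to 6.95 and 6.97. Ugt2b36 ended at 7.08 and 6.72. Dio3, which inactivates thyroid hormone, fell from 8.62 and 8.77 to 7.02 and 6.49, and of the 6 largest such falls it was the one that passed in both models (adjusted p = 0.0297 without the block). Angpt1, a ligand of the endothelial receptor Tek (-1.78 ± 0.28), and Mrgprb3, a Mas-related receptor (-1.72 ± 0.26), completed the 6.

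The shares of rises and falls were then read by untreated level, as a description. Genes above background were cut into 4 bands of equal size by untreated level. In the lowest band (7.15 to 8.13), 5.95% rose and 3.24% fell. In the second (8.13 to 9.58) the shares were 11.5% and 12.4%, in the third (9.58 to 10.80) 12.1% and 14.6%, and in the highest (10.80 to 14.48) 7.91% and 13.4%. Changes of at least 2-fold were 48 rises and 10 falls in the lowest band and 19 rises and 51 falls in the highest. The largest rise became smaller with level, 5.02 within background and 3.65, 3.29, 2.75 and 1.55 in the 4 bands. A gene within the background range has little room to fall, and there 1.83% of 6492 genes rose and 0.832% were called lower. The array signal also has an upper end, at 14.75 in these data. The bands use the same untreated arrays that enter the change, so these shares are not independent of it. Over the 13445 genes above background, 9.38% rose and 10.9% fell.

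**Figure D2:**
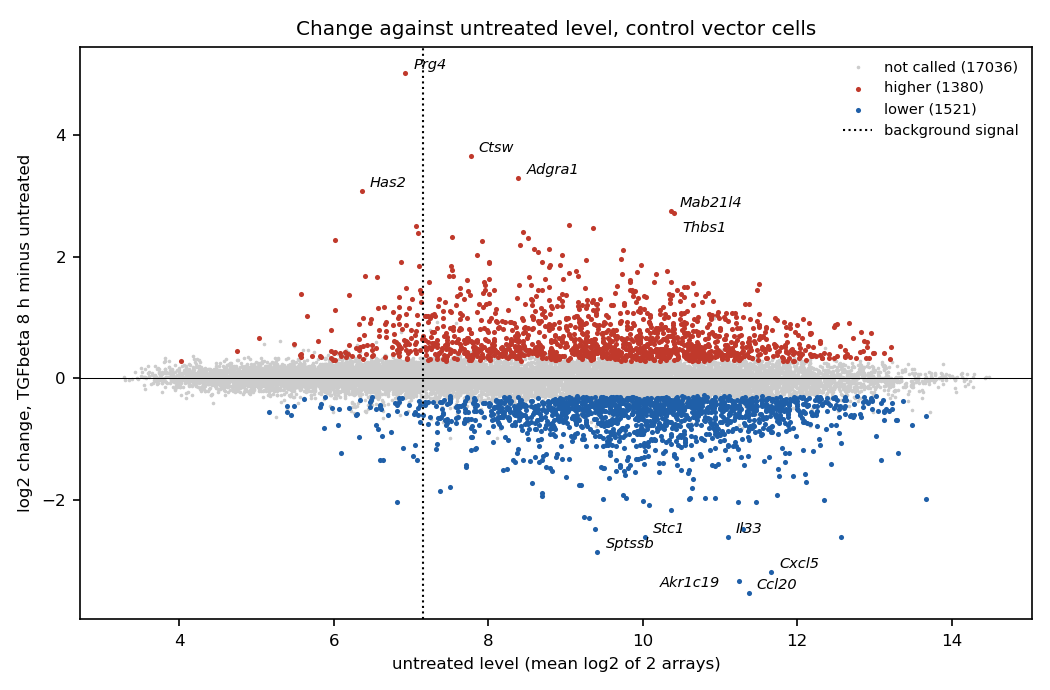
Change after TGFbeta (log2, treated minus untreated) against untreated level for 19937 genes, with rises in red, falls in blue and a dotted line at the background signal of 7.15. The largest rise, Prg4 (5.02), started near background, other large rises such as Mab21l4 started above 10, and the 12 largest falls started above 9.

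**Figure D3:**
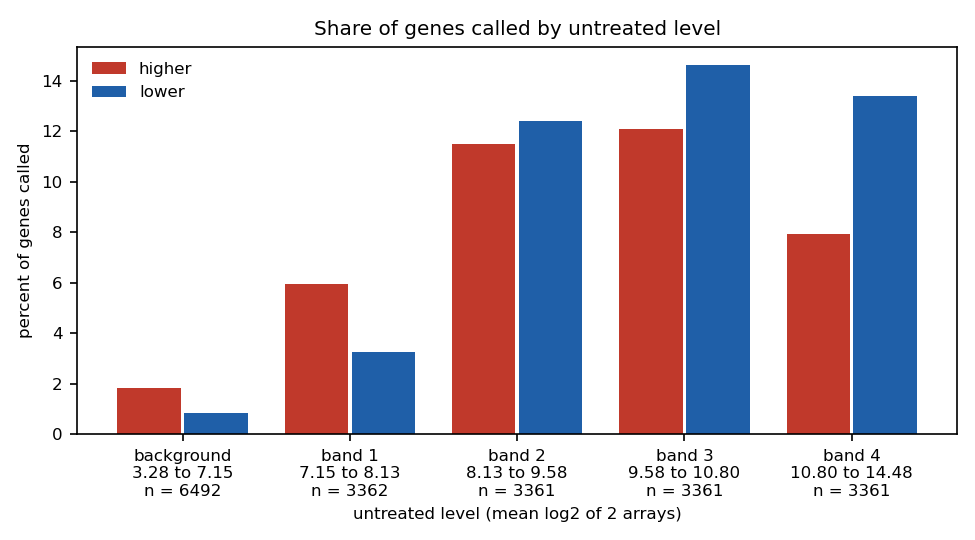
Percent of genes called higher and lower in the background range and in 4 equal bands of untreated level. The share of falls grew from 3.24% in the lowest band to 14.6% in the third, and rises were the more frequent call in the background range and the lowest band.

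Functions were then followed with 62 gene lists. Their counts are to be read against 6.92% of all genes higher and 7.63% lower, and against the median of 0.01 over all genes. In most lists most members lay above background, where 9.38% of genes rose and 10.9% fell. From the second band of level up, falls made up 12.4% to 14.6%. Falls lay near those shares in fatty acid synthesis (15.6%), fatty acid oxidation (16.1%), splicing (14.7%), heat shock (14.3%) and histone and DNA modification (12.2%). The lists were chosen with earlier results of these data known and are described by counts alone. Of the 232 rises of at least 2-fold, 78 belonged to a list, and of the 192 falls 56. Counts of 1 to 4 members are unsteady, as 38 of 51 such counts moved by over 1.5 times when some 1 array was left out. Among the list genes named below and not marked there, signalling genes that passed in both models were Smad7, Spsb1, Rhob, Inhba, Ltbp1, Nrg1, Vegfc, Fgfr2, Spred2, Prkar2b, Sema3c, Nrp2, Fzd2, Bhlhe40 and Per2. Matrix, adhesion and marker genes that did so were Hs3st1, Itga5, Timp3, Serpinb8, Cldn4, Ppl, Sorbs2, Muc1 and Twist2. Cell cycle, transport and turnover genes that did so were Cdk6, Bcl2l11, Sult1c2, Atp7b, Steap4, Fbxo32, Rnf19b and Ctse.

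**Figure D4:**
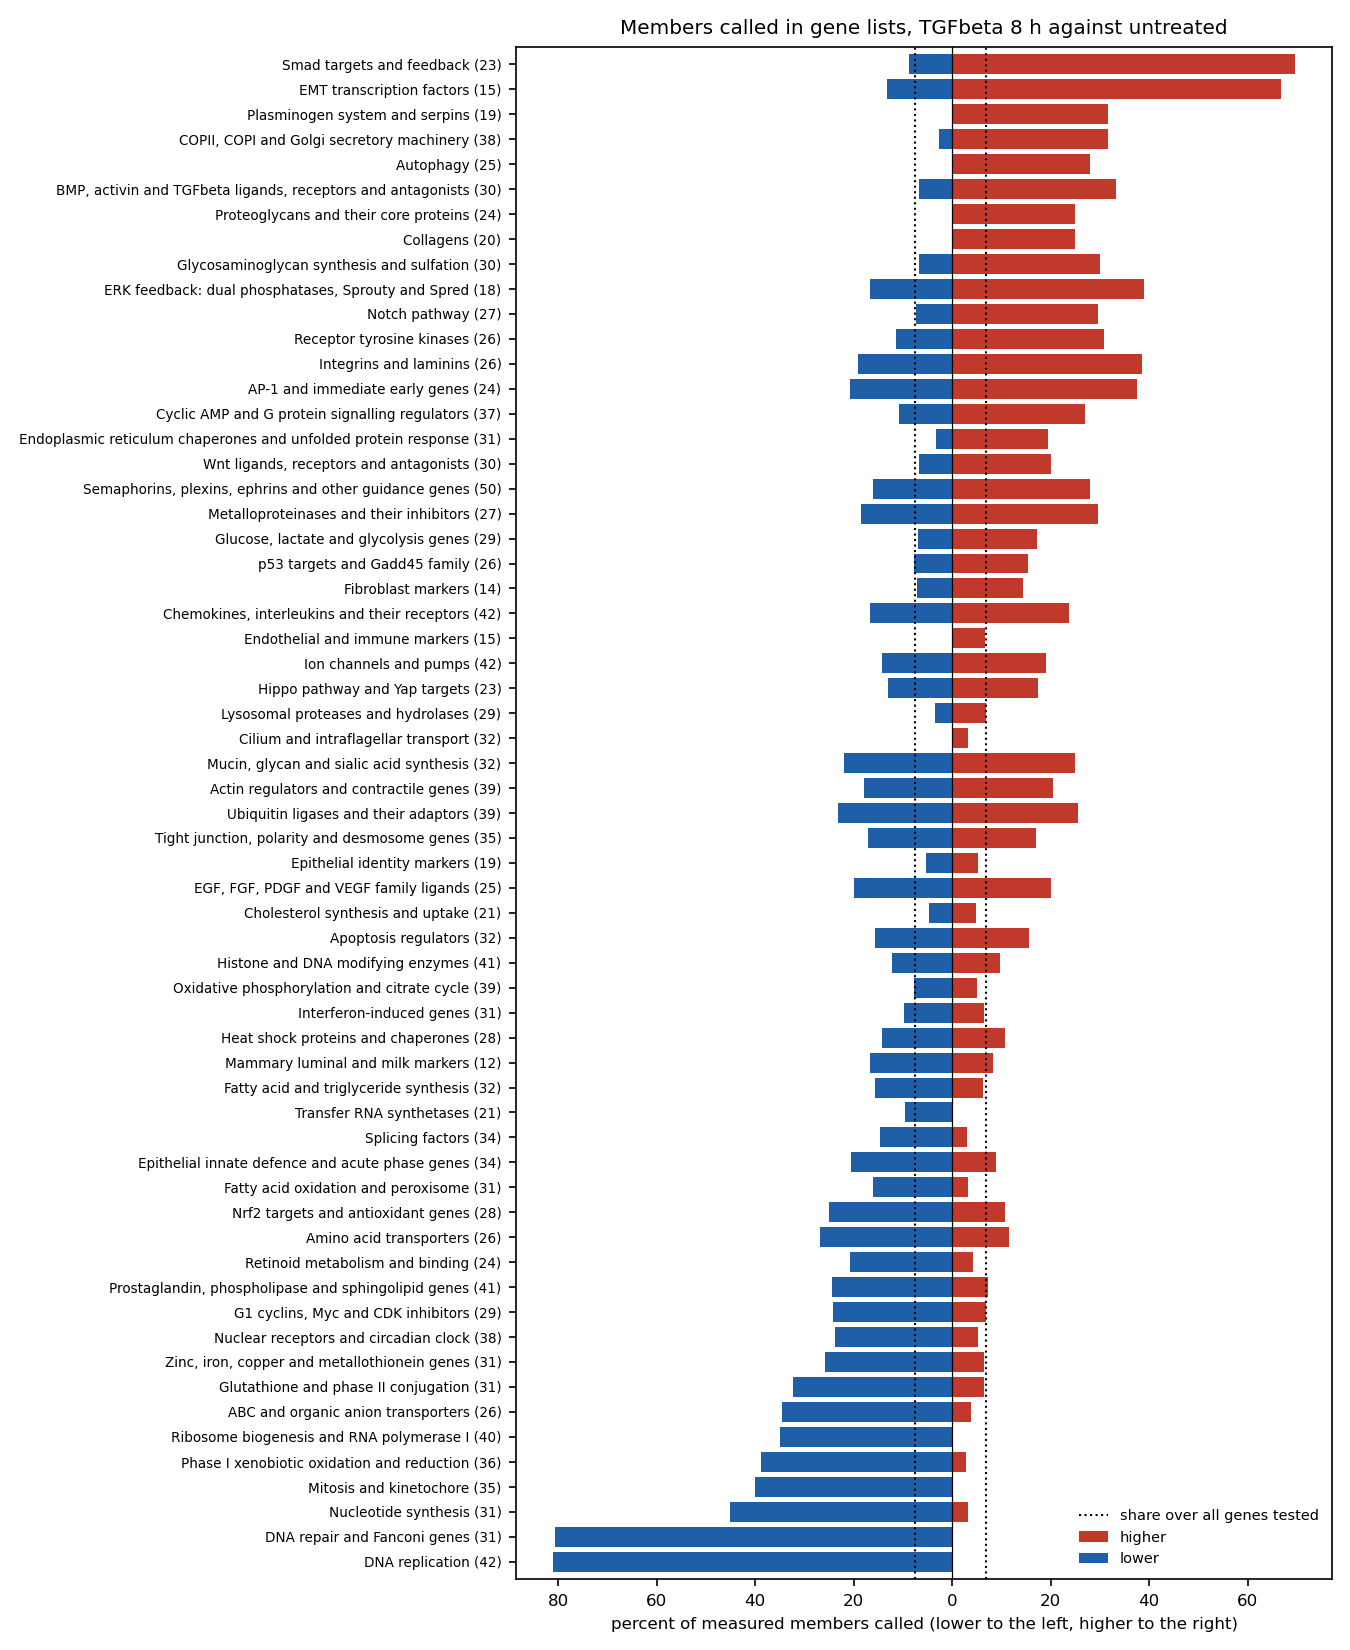
Percent of the measured members of each gene list reported here that were called higher (red, to the right) or lower (blue, to the left), with dotted lines at the shares over all genes, 6.92% and 7.63%, and the number of measured members in brackets. Over genes above background, which make up most members of most lists, the shares were 9.38% higher and 10.9% lower. DNA replication and repair genes were called lower in 81% and 80.6% of members, and Smad targets higher in 69.6%.

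The pathway's own genes rose. Of 23 Smad targets and feedback genes, 16 rose (5 without the block) and 2 fell, with a median change of 0.70. Smad7, which blocks the receptors, went from 9.37 and 9.45 to 10.49 and 10.78 (1.22 ± 0.11). Spsb1, an adaptor of a ubiquitin ligase (2.19 ± 0.09), and Rhob, an endosomal GTPase (1.95 ± 0.08), were the largest rises of the list, and the 2 falls, named after their values were seen, were Id1 (-0.72 ± 0.10) and Id3 (-1.32 ± 0.12), inhibitors of helix-loop-helix factors that BMP signals induce. The 16 rises started from levels between 7.47 and 12.67, all above background. Of 15 EMT transcription factors 10 rose and 2 fell, with 5 rises without untreated replicate 2 and 4 without treated replicate 2. Snai1 was 8.94 and 8.52 untreated and 10.75 and 9.98 treated (1.63 ± 0.17, adjusted p = 0.000325, and 0.147 without the block). Cdh1, a gene Snai1 represses, was 12.84 and 13.16 against 12.74 and 13.11, a change of -0.07 ± 0.09 (adjusted p = 0.698).

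Ligands and receptors of the family and of other growth factors moved in both directions. Of 30 BMP, activin and TGFbeta ligands, receptors and antagonists, 10 rose and 2 fell (6 rises without untreated replicate 2). Inhba, the activin A subunit, rose by 1.59 ± 0.16, Acvr1, a BMP type I receptor, by 1.24 ± 0.11, and Ltbp1, which tethers latent TGFbeta to the matrix, by 1.01 ± 0.09. Of 25 EGF, FGF, PDGF and VEGF family ligands, 5 rose and 5 fell. Pdgfa rose by 1.56 ± 0.16 and Pdgfb went from 11.27 and 10.10 to 12.45 and 11.68, while Nrg1, a ligand of ErbB receptors, went from 11.89 and 11.99 to 10.32 and 10.35. Vegfc, a lymphatic growth factor, rose by 1.35 ± 0.09. The falls of that list numbered 2 without untreated replicate 2 and 3 without treated replicate 2. Of 26 receptor tyrosine kinases, 8 rose and 3 fell. Fgfr2, the epithelial FGF receptor, fell from 10.28 and 10.92 to 8.51 and 8.72, and Fgfr1 rose from 8.30 and 8.07 to 9.45 and 8.80. The rises of the kinases numbered 4 without untreated or treated replicate 2 and 5 without untreated replicate 1.

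Among intracellular regulators, 9 of 24 AP-1 and immediate early genes rose and 5 fell. Jun rose by 1.20 ± 0.17, Fosl2 by 1.14 ± 0.15 and Junb by 1.01 ± 0.14, and none of the 9 passed without the block. The list had 5 rises without untreated replicate 2 and 4 without treated replicate 2, and 1 to 3 falls without any 1 control vector array. Of 18 ERK feedback genes 7 rose and 3 fell, with Dusp6 (-1.23 ± 0.12) and Spry1 (-1.12 ± 0.12), both induced by ERK signals, against Spred2 (1.01 ± 0.11). There were 3 or 4 such rises when any 1 control vector array was left out. Of 37 cyclic AMP and G protein regulators, 10 rose and 4 fell, among them Adgra1, the phosphodiesterase gene Pde4d (1.09 ± 0.09) and the kinase subunit gene Prkar2b (-1.11 ± 0.10). Without treated replicate 2 there were 6 such rises. Of 23 Hippo pathway and Yap target genes 4 rose and 3 fell.

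Developmental signalling moved with a few large changes. In the Notch pathway 8 of 27 genes rose and 2 fell. The ligand genes Jag1 (11.65 and 11.36 to 13.06 and 13.06) and Dll1 (7.96 and 7.97 to 9.41 and 9.61) rose in both models, and the receptor gene Notch1 fell in both (10.84 and 10.95 to 9.77 and 10.06). Of 50 semaphorins, plexins, ephrins and other guidance genes 14 rose and 8 fell. Sema3c fell by 2.04 on the log2 scale (SE 0.13) and Sema3e from 10.36 and 10.84 to 8.58 and 9.63, while Nrp2, a semaphorin co-receptor, rose by 1.30 ± 0.13. Of 30 Wnt ligands, receptors and antagonists 6 rose and 2 fell, with the receptor gene Fzd2 up by 1.20 ± 0.12 and Wnt4 changed by -0.76 ± 0.08. Of 38 nuclear receptors and clock genes 2 rose and 9 fell. Bhlhe40, a clock repressor that is also a Smad target, rose by 1.77 ± 0.10 and Vdr, the vitamin D receptor, by 1.04 ± 0.14, while Nr3c2, the mineralocorticoid receptor (-0.96 ± 0.15), and Per2 (-0.72 ± 0.08) fell. The 9 falls were 2 without untreated or treated replicate 2.

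Some genes for the sugar chains of the matrix rose. Of 30 glycosaminoglycan synthesis and sulfation genes 9 rose and 2 fell. Next to Has2 these included Chst11, a chondroitin sulfotransferase (8.79 and 8.17 to 10.13 and 9.28), and Papss2, which makes the sulfate donor (9.82 and 10.19 to 10.82 and 11.12). Hs3st1, a heparan sulfotransferase, fell from 10.13 and 9.89 to 8.76 and 8.66. Of 24 proteoglycan genes 6 rose and 18 did not pass, and the rises were led by Prg4, Sdc3, Gpc1, a glypican (1.20 ± 0.14), and Vcan, versican (0.87 ± 0.17). Of 32 mucin, glycan and sialic acid synthesis genes 8 rose and 7 fell. Mgat3 (-1.81 ± 0.10) and Gcnt1 (-1.45 ± 0.11), which branch N- and O-glycans, fell and B4galt1, a galactosyltransferase (1.01 ± 0.10), rose, all 3 in both models. Without untreated or treated replicate 2 there were 5 rises in this list, and 4 falls without treated replicate 2.

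In the COPII, COPI and Golgi list, 12 of 38 genes rose (2 without the block) and 1 fell, with a median of 0.20, and 34 of 38 fitted changes were above 0. Creb3l2 and Creb3l1 encode membrane-bound factors that induce secretory genes. Creb3l2 went from 10.49 and 10.28 to 11.73 and 11.77 and Creb3l1 from 7.46 and 7.08 to 8.34 and 8.27, and both passed in both models. Sec24d, a cargo adaptor of COPII coats, rose by 1.07 ± 0.11 and Kdelr3, a retrieval receptor, by 1.37 ± 0.17. Of 31 endoplasmic reticulum chaperone and unfolded protein response genes 6 rose and 1 fell, with Ddit4, an inhibitor of mTORC1 (1.71 ± 0.13), the stress kinase gene Eif2ak3 (1.04 ± 0.09) and Xbp1 (0.72 ± 0.08) up in both models. Those rises numbered 3 without untreated replicate 2, treated replicate 1 or treated replicate 2. Of 25 autophagy genes 7 rose and 18 did not pass, all 7 by less than 2-fold. Map1lc3a, a protein of the autophagosome membrane, went from 8.69 and 8.26 to 9.32 and 9.16, and Sqstm1, a cargo receptor, from 13.12 and 13.14 to 13.57 and 13.53. None of these 7 passed without the block, and the list had 1 or 2 rises when any control vector array was left out.

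Adhesion and protease genes split. Of 26 integrins and laminins 10 rose and 5 fell. Itga5, which pairs with Itgb1 as the fibronectin receptor, went from 10.00 and 9.49 to 12.09 and 11.61, and Lamb3, a chain of epithelial laminin, from 11.59 and 11.04 to 12.63 and 12.47. There were 6 rises without untreated or treated replicate 2, and 2 or 3 falls when any control vector array was left out. Of 27 metalloproteinases and inhibitors 8 rose and 5 fell, with the inhibitor gene Timp3 up by 1.92 ± 0.19, the meprin gene Mep1a changed by -1.96 ± 0.29 and Mmp13, a collagenase, by -1.36 ± 0.16. The rises were 4 without untreated or treated replicate 2, and the falls 3 without untreated replicate 1, untreated replicate 2 or treated replicate 2. Of 19 plasminogen system and serpin genes 6 rose and 13 did not pass, and the largest rise was Serpinb8 (1.16 ± 0.10). Without untreated replicate 2 there were 3. Of 20 collagens 5 rose and 15 did not pass, by 0.39 to 0.81, and none passed without the block. Between 2 and 3 collagens rose without untreated replicate 2, without either treated replicate or without either untreated array of the major satellite line. Of 35 tight junction, polarity and desmosome genes 6 rose and 6 fell, led by Cldn4, a tight junction claudin (7.99 and 7.86 to 10.30 and 10.07), and Ppl, periplakin (11.32 and 11.30 to 9.83 and 9.95). The 6 falls were 2 without untreated replicate 2 and 3 without either treated replicate. Of 39 actin regulators and contractile genes 8 rose and 7 fell, with Sorbs2, an adaptor at stress fibres, at 12.16 and 12.54 before and 10.15 and 10.54 after. Rises in this list numbered 5 without untreated replicate 1 and 4 without untreated or treated replicate 2.

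DNA replication stood at the other end. Of 42 replication genes 34 fell and 8 did not pass, with a median change of -0.65, and the fitted change was below 0 in all 42. The median was -0.48 in the replicate 1 pair and -0.84 in the replicate 2 pair, and 29 of the 34 fell more in the replicate 2 pair. Ccne2, the S-phase cyclin E2, went from 9.81 and 9.79 to 8.79 and 8.11 (-1.35 ± 0.16). Prim1, the DNA primase subunit, went from 11.01 and 10.99 to 10.38 and 9.56, and Mcm10, an assembly factor of the helicase, from 10.82 and 10.19 to 9.98 and 9.18. The treated arrays lay below both untreated arrays in these genes, and treated replicate 2 was the lowest. The falls were mostly under 2-fold (2 of 34 reached it) and started from levels between 8.42 and 12.38. Without the block, 1 of them passed, Ccne2. There were 16 falls without untreated replicate 2 and 18 without treated replicate 2.

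DNA repair and Fanconi genes, which mend crosslinks and broken forks, did likewise. Of 31 genes 25 fell and 6 did not pass, with a median of -0.66, -0.48 and -0.90 in the replicate 1 and 2 pairs. Uhrf1, which guides maintenance methylation behind the fork (-1.16 ± 0.20), and the nuclease gene Exo1 (-1.14 ± 0.12) fell most. The untreated levels of the 25 lay between 7.86 and 11.23. Without untreated replicate 2 there were 12 falls, without treated replicate 2 there were 10, and none passed without the block. Of 31 nucleotide synthesis genes 14 fell and 1 rose, with a median of -0.30. Shmt1, which supplies one-carbon units for thymidylate, went from 11.01 and 10.92 to 9.83 and 9.29, and Tk1, thymidine kinase, from 11.32 and 10.88 to 10.47 and 9.55. Cda, cytidine deaminase of the salvage route, rose from 11.31 and 10.66 to 12.30 and 11.65. There were 6 falls without untreated or treated replicate 2.

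Promoters of replication genes are shown because E2F, the factor family that the retinoblastoma protein holds in check in G1, is known to drive this group. TTTNNCGC, letters of the E2F site, were searched on both strands. They stood in 16 of 40 promoters of the replication list (40%, from 34 of its 42 genes), in 9.78% of promoters of all falls, in 7.85% of those of genes above background and in 5.17% of all promoters. Windows to show were again picked with a single chromosome left out. Among the rest, the 3 replication genes with the largest falls and these letters in the 120 bases before the start were Dna2, Orc1 and Rfc3. Dna2 is a nuclease that trims fork intermediates, Orc1 the largest subunit of the origin recognition complex and Rfc3 a subunit of the clamp loader. All 3 were chosen after their values were seen. Their windows lie at chr10:62946909-62947028 (plus strand), chr4:108579334-108579453 (plus strand) and chr5:151651209-151651328 (minus strand) of GRCm38.p6, and capitals mark TTTNNCGC or its reverse complement.
Dna2: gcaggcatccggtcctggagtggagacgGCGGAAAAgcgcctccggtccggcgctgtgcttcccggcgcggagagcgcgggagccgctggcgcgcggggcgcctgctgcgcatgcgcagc
Orc1: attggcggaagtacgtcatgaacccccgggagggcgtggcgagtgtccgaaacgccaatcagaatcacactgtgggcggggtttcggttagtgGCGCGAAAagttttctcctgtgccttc
Rfc3: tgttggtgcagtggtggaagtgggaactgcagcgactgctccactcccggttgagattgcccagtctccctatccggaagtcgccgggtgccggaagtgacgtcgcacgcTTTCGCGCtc

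Dna2 was 10.47 and 10.46 untreated and 9.88 and 9.52 treated, Orc1 9.21 and 8.66 against 8.52 and 8.02, and Rfc3 10.74 and 10.63 against 10.34 and 9.73. Their changes were -0.77 ± 0.11, -0.66 ± 0.09 and -0.65 ± 0.12. In each the 8 h arrays lay below the untreated array of their own pair.

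Mitosis, ribosome and cell cycle control genes were read next. Of 35 mitosis and kinetochore genes 14 fell and 21 did not pass, with a median of -0.32, and -0.15 and -0.51 in the replicate 1 and 2 pairs. Cenph (-1.09 ± 0.16) and Cenpk (-0.94 ± 0.15), inner kinetochore subunits, fell most, and the list had 2 falls without untreated or treated replicate 2. Of 40 ribosome biogenesis and RNA polymerase I genes 14 fell and 26 did not pass, with a median of -0.26 that differed little between the pairs (-0.24 and -0.28). Rrp1b (-0.72 ± 0.10) and Nop58, a protein of box C/D particles (-0.58 ± 0.08), led these falls, which numbered 7, 4, 3 and 2 without untreated replicate 1, treated replicate 1, treated replicate 2 and untreated replicate 2. None of the mitosis and ribosome biogenesis falls passed without the block. Of 29 G1 cyclins, Myc and CDK inhibitors 7 fell and 2 rose. Ccnd2, cyclin D2, went from 12.11 and 12.09 to 10.77 and 10.29, E2f8, a repressive E2F, from 10.92 and 10.57 to 9.86 and 9.14, and Cdk6 from 12.48 and 12.59 to 11.51 and 11.76. There were 3 falls in this list without untreated or treated replicate 2. Of 26 p53 targets and Gadd45 genes 4 rose and 2 fell, and the rises included all 3 Gadd45 genes, Gadd45a, Gadd45g (1.43 ± 0.17) and Gadd45b (0.69 ± 0.18). Of 32 apoptosis regulators 5 rose and 5 fell. Bmf (1.27 ± 0.10) and Bcl2l11 (1.02 ± 0.10), which promote death, rose and Bcl2l1, which restrains it, changed by -0.73 ± 0.08. Those rises were 3 without treated replicate 2, and the falls 1 without untreated or treated replicate 2 and 3 without treated replicate 1.

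**Figure D5:**
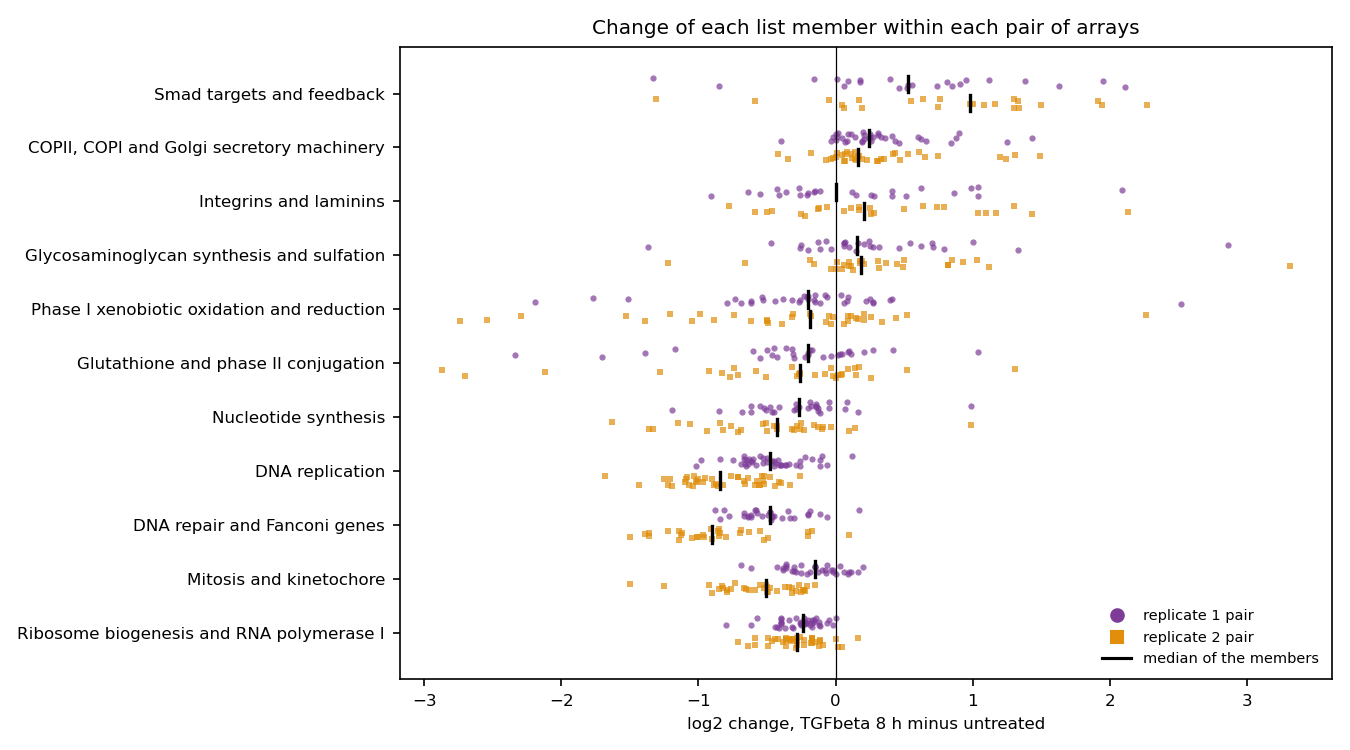
Change of each measured member of 11 gene lists within the replicate 1 pair (purple circles) and the replicate 2 pair (orange squares), with black bars at the medians. DNA replication members had medians of -0.48 and -0.84, and COPII and Golgi members 0.24 and 0.16.

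Detoxification genes were called lower more often than higher. Of 36 phase I oxidation and reduction genes 14 fell and 1 rose, and 5 of the 14 fell at least 2-fold. After Cyp2s1 these were led by Adh7, a retinol-oxidising alcohol dehydrogenase (11.05 and 11.40 to 9.28 and 9.12), and Akr1c14 (9.60 and 10.40 to 8.09 and 7.86), while the rise was Aldh1l1. The list's median was -0.17, and 2 of the falls, Cyp2s1 and Adh7, passed without the block. There were 9 falls without untreated replicate 2 and 8 without treated replicate 2. Of 31 glutathione and phase II conjugation genes 10 fell and 2 rose, with a median of -0.15. Sult1c2, a sulfotransferase, went from 11.58 and 11.89 to 9.88 and 9.77, and Gclc, the rate-limiting enzyme of glutathione synthesis, from 13.10 and 13.52 to 11.92 and 12.24. Without untreated or treated replicate 2, 6 fell. TTTNNCGC stood in none of the 35 promoters of this list, and TGACNNNGC, letters of the Nrf2 element that can share bases with TGANTCA, in 11.4%, against 12.4% of all promoters.

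Of 28 Nrf2 target and antioxidant genes, which share 3 members with the glutathione list, 7 fell and 3 rose. The falls included Slc7a11, which imports cystine for glutathione (9.04 and 10.32 to 8.48 and 9.07), and Sesn2 (-0.51 ± 0.10), and none of the 7 passed without the block. They numbered 1, 3 and 2 without untreated replicate 2, treated replicate 1 and treated replicate 2. Of 26 ABC and organic anion transporters, which share 2 members with the Nrf2 list, 9 fell and 1 rose. Slco2a1, a prostaglandin carrier, went from 12.47 and 12.42 to 11.42 and 10.64, and Abcc2, which exports conjugates, from 9.08 and 9.38 to 8.62 and 7.97. None of the 9 passed without the block, and there were 2, 5 and 4 without the same 3 arrays. Of 24 retinoid genes 5 fell and 1 rose. The falls included the reductase gene Dhrs3 (-1.31 ± 0.19) and Aldh1a1, which makes retinoic acid (-1.06 ± 0.14), beside Adh7. The retinoid list shares 5 members with the phase I list, among them Adh7 and Aldh1a1, so their falls are counted in both. Of 31 zinc, iron, copper and metallothionein genes 8 fell and 2 rose. Atp7b, a copper exporter, went from 9.82 and 9.85 to 8.51 and 8.31, Slc39a10, a zinc importer, from 11.78 and 12.38 to 10.98 and 10.83, and Tfrc, the transferrin receptor, from 12.12 and 11.66 to 11.33 and 10.79. Steap4, a metalloreductase, rose from 7.55 and 7.82 to 8.78 and 9.22. Without untreated or treated replicate 2 there were 5 falls in this list.

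Nutrient, lipid and ion transport lists each had rises and falls. Of 26 amino acid transporters 7 fell and 3 rose, with the glutamine carrier gene Slc1a5 (11.18 and 10.83 to 10.46 and 9.68) and the arginine carrier gene Slc7a1 (-0.68 ± 0.08) down and Slc7a7 up (0.77 ± 0.18). The falls were 2, 4 and 3 without untreated replicate 2, treated replicate 1 and treated replicate 2. Of 29 glucose, lactate and glycolysis genes 5 rose and 2 fell. Pfkfb4 (7.98 and 7.73 to 10.02 and 9.73) and Pfkfb3 (8.80 and 8.83 to 9.76 and 10.18) set the level of the activator of phosphofructokinase, and both passed in both models, as Pdk4, which holds back pyruvate oxidation (1.06 ± 0.15), and Hk2 (1.02 ± 0.13) did with the block alone. Of 41 prostaglandin, phospholipase and sphingolipid genes 3 rose and 10 fell, with Sphk1, which makes sphingosine 1-phosphate (9.22 and 9.06 to 11.06 and 10.75), and the phospholipase gene Plce1 (10.54 and 10.75 to 8.92 and 9.05) in opposite directions and passing in both models. Without untreated or treated replicate 2 that list had 4 falls. Of 31 fatty acid oxidation and peroxisome genes 5 fell and 1 rose, led by the co-activator gene Ppargc1a (-1.28 ± 0.15), with 2 falls without untreated or treated replicate 2. Of 32 fatty acid and triglyceride synthesis genes 5 fell and 2 rose, with Elovl6, an elongase, at -0.86 ± 0.10 and Plin2, a lipid droplet protein, at 0.84 ± 0.09. Those falls were 2, 3 and 1 without untreated replicate 2, treated replicate 1 and treated replicate 2. Of 42 ion channels and pumps 8 rose and 6 fell, with the calcium channel gene Trpv4 (1.39 ± 0.12) up in both models. The rises were 4 or 5 without either untreated replicate or treated replicate 2, and the falls 3 without untreated replicate 2 or either treated replicate.

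Defence genes moved in both directions. Of 42 chemokines, interleukins and receptors 10 rose and 7 fell. The falls, led by Ccl20, Cxcl5 and Il33, ranged from -0.69 to -3.53, and 5 reached 2-fold, whereas 1 of the 10 rises did, Il11. Without untreated or treated replicate 2 there were 5 rises. Of 34 innate defence and acute phase genes 7 fell and 3 rose, with the complement protease gene C1s1 (-1.34 ± 0.34) and the endotoxin receptor gene Tlr4 (-0.75 ± 0.11) down and Tlr2 up (0.63 ± 0.13). There were 4 falls without either untreated replicate and 3 without treated replicate 2. Of 31 interferon-induced genes 2 rose (6.45%) and 3 fell (9.68%), near the shares of 6.92% and 7.63% over all genes. Oasl2 (7.56 and 7.87 to 9.30 and 9.39) and Ifit3 (7.45 and 7.97 to 6.44 and 6.08) moved in opposite directions, both in both models.

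In protein turnover and gene regulation the calls were mixed. Of 39 ubiquitin ligases and adaptors 10 rose and 9 fell. Fbxo32, the F-box protein atrogin-1, went from 8.35 and 8.84 to 10.54 and 10.88, Rnf19b rose by 1.68 ± 0.09, and Nedd4l, a ligase that acts on sodium channels and Smads, went from 10.57 and 10.96 to 9.63 and 9.35. There were 6 rises without treated replicate 2 and 5 falls without untreated replicate 2. Of 41 histone and DNA modifying enzymes 4 rose and 5 fell, with the demethylase genes Kdm6b (0.88 ± 0.11) and Kdm5b (0.83 ± 0.11) up and the maintenance methyltransferase gene Dnmt1 changed by -0.58 ± 0.11, and the falls were 2 or 3 without untreated replicate 2 or either treated replicate. Of 34 splicing factors 5 fell and 1 rose, with 3 falls in a fit of the 4 control vector arrays and 1 to 3 without any of the control vector arrays or without either untreated major satellite array. Of 28 heat shock proteins and chaperones 3 rose and 4 fell, with Bag3, a co-chaperone, up by 0.90 ± 0.09. None of these passed without the block. There were 1 rise and no fall in that list without untreated or treated replicate 2, and 2 falls without untreated or treated replicate 1. Of 29 lysosomal proteases and hydrolases 2 rose (6.9%), Ctsw and Ctse, and 1 fell (3.45%), no more than the shares over all genes.

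Some functions had calls near or below the share over all genes. Of 32 cilium and intraflagellar transport genes 1 passed, Bbs5 (0.49 ± 0.11). Of 39 oxidative phosphorylation and citrate cycle genes 2 rose and 3 fell, with changes between -0.60 and 0.41, and of 21 transfer RNA synthetases 2 fell. Of 21 cholesterol synthesis and uptake genes 1 rose, Insig1, which holds back that pathway (0.83 ± 0.14), and 1 fell, Dhcr7 (-0.52 ± 0.09). A gene that missed the threshold is not thereby shown to be unchanged.

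Few markers of the epithelial, mammary, fibroblast, and endothelial and immune lists were called. Of 19 epithelial identity markers 1 rose, Krt7 (0.86 ± 0.15), and 1 fell, Krt19 (-0.76 ± 0.09). Of 12 luminal and milk markers Gata3 rose (0.51 ± 0.10), and Muc1 (11.44 and 11.62 to 10.56 and 10.65) and Csn3 fell, the latter within the background range. Of 14 fibroblast markers Pdgfra (0.63 ± 0.10) and Col1a1 (0.39 ± 0.10) rose and Twist2 fell (-0.96 ± 0.09), and of 15 endothelial and immune markers Cdh5 rose (0.32 ± 0.09). Of the 32 liver and gut genes, which were chosen after their values were seen, 13 fell and 19 did not pass, and 2 of the falls passed without the block. Glyat, a glycine conjugating enzyme, changed by -1.76 ± 0.14, Foxa2, a factor of endoderm, by -1.39 ± 0.10 and the bile acid receptor gene Nr1h4 by -1.34 ± 0.10, while Hnf4a was 12.79 and 12.98 untreated and 12.78 and 12.98 treated.

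The response was set against that of the major satellite line by the difference between both changes. That test called 0 of 19937 genes (0%) in the blocked limma model and 0 without the block, while 658 and 44 had an unadjusted p under 0.05. Leaving out 1 array changed this once, as 17 genes passed without treated replicate 1 of the major satellite line. The fitted changes of the control vector and the major satellite line were 5.02 and 4.76 for Prg4, 3.08 and 3.29 for Has2, and -3.53 and -2.95 for Ccl20. For Olr1 they were 2.33 and 1.65. No gene named above was called for the difference between lines, which does not show that the lines respond alike.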

How the data were processed

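The 8 arrays were Affymetrix expression arrays of 4 groups with 2 arrays each. The deposited values are log2 expression values per probeset. RMA and limma are named by the submitters' processing notes, with their versions and the genome build of the probes not given in the sources used here. Values were used as deposited. Of 34760 probesets, 21640 had 1 gene symbol, 1321 several and 11799 none, per the platform annotation, and symbols of 19855 genes were updated through Entrez identifiers while 82 were kept.

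limma 3.58.1 (R 4.3.3) fitted 4 group means with the replicate number as a block over all 8 arrays, with Benjamini-Hochberg adjustment over 19937 genes and a threshold of 0.05. The pairing comes from the code in the array titles. Same-numbered arrays deviated together from their group means in all 6 pairs of groups (r from 0.758 to 0.874 across genes, 0.822 between untreated and treated control vector arrays). The blocked model was chosen with its effect on the counts known from earlier results, and the members and gene lists were likewise chosen with earlier results of these data known. The fit was tested on simulated data with planted changes of 2-fold or 4-fold, which it recovered. Most calls in the real data are smaller (median log2 changes of 0.56 and -0.54), and recovery of such changes was not tested. In the simulated data the share of false calls was above the nominal threshold, so more of the calls may be false than that threshold states.

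Genes named were the 12 largest rises and 12 largest falls with the same sign in both pairs, without predicted loci and small RNA genes, the 6 largest changes of genes that reached or left signal, up to 4 passing members with the largest change of each list, and Smad7, Snai1 and Cdh1. Of the 62 gene lists, 1 is not reported here. Cell type markers and genes said to be chosen after their values were seen stand outside that rule. Promoters are from RefSeq (GRCm38.p6), 250 bases before and 50 after the start. Alternatives were the model without the block, other normalizations, a filter on low signal, the mean of probesets, moderation with a trend, the control vector arrays alone, a threshold of 0.01, other background percentiles and leaving out each array. Python 3.11.15, pandas 2.3.3 and matplotlib 3.10.9 were used for tables and figures.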

Additional observations from a re-analysis of the deposited data

Results flagged for a closer look

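Probesets without exactly 1 gene symbol were left out of the comparison. In a limma fit with the replicate block over all probesets, 27 of 1321 probesets with several symbols were called after TGFbeta, 19 higher and 8 lower. Of 11799 probesets with no symbol, 159 were called, 64 higher and 95 lower. They are unnamed here and were not described further.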

How the results depend on the processing

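The replicate block decided most calls. Without the block, 141 genes rose and 73 fell, in place of 1380 and 1521, and 10 genes reached signal and 4 left it, in place of 62 and 54. Of the 244 named genes, 171 no longer passed. A threshold of 0.01 left 807 rises and 742 falls. Leaving out 1 array at a time gave 652 to 1459 rises, 528 to 1702 falls and 0 to 17 genes for the difference between the lines. With the 90th percentile as background, 29 genes reached signal and 32 left it, and with the 99th percentile 108 and 92. No alternative called a named gene in the opposite direction. Quantile normalization took 1 named gene below the threshold, the mean of probesets 2, moderation with a trend 9, and median centring and the 4 control vector arrays alone none. At the threshold of 0.01, 31 named genes no longer passed. Leaving out any 1 control vector array, which leaves 1 array in a group, took more named genes below the threshold than moderation with a trend did. With 2 arrays a group and 3 residual degrees of freedom, small changes are uncertain, and those missed are not shown to be absent. The smallest called change was 0.28 in size on the log2 scale. Levels within the background range bound falls from below.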

Other observations

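Of the 32 measured liver and gut genes, a list put together after the values were seen, the untreated control vector means were 12.35 for Apob, an apolipoprotein, 11.50 for Ttr, transthyretin, and 11.35 for Vil1, villin of the brush border. After TGFbeta, Fgb, a fibrinogen chain, changed by -1.62, Crp, C-reactive protein, by -1.52, and Agt, angiotensinogen, by -1.51. Cdx2, an intestinal homeobox factor, changed by -0.81. These genes passed the threshold in the blocked limma model, except Apob and Ttr, which are given by level only. Other members lay within the background range, such as Cps1, Tat and G6pc, with untreated control vector means of 6.84, 7.04 and 6.90. The median change over the 32 genes was -0.15, against 0.01 over all genes.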
